A study of Mus musculus with 8 samples.

Results

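Myc, Pvt1 and the MAX network are a set of 10 mouse genes: Myc, Mycn, the shared partner Max, the MAX-binding repressors Mxd1, Mxi1, Mxd4 and Mnt, the related factors Mlx and Mlxip, and the long non-coding RNA gene Pvt1. They were chosen by name. Rows of the deposited table that carry exactly 1 of these symbols were taken, and of several rows of a gene only the brightest on average over the 8 hearts was used. All 10 had a row, out of 19938 genes with a row in the table. Pvt1 was the only member with more than 1 row. The genes were proposed with results of these hearts already known, the rise of Myc among them, so their differences are given as a description of these 8 hearts.

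The tested mice carried MHC-Plin5, a transgene that overexpresses perilipin 5, a coat protein of lipid droplets, in cardiomyocytes. The name points to a myosin heavy chain promoter. Which one, and how many founder lines were used, is not given in the sources used here. Heart samples, 4 from MHC-Plin5 and 4 from control mice, were profiled on Affymetrix whole-transcript arrays. All 8 were males of 12 weeks on a c57/bl background, and all hearts were labelled as fasted. Plin5 had log2 levels of 12.17, 12.69, 12.63 and 12.08 in MHC-Plin5 hearts, against 8.92, 8.87, 9.04 and 8.58 in control hearts (log2 difference 3.54, SE 0.16, limma adjusted p = 6.9e-07; exact two-sided permutation p = 0.0286, the smallest that 4 against 4 hearts allow). The 9 measured genes of a ventricular cardiomyocyte list had a mean log2 level of 13.33 to 13.61 in MHC-Plin5 hearts and 13.59 to 13.64 in control hearts. The array medians lay between 5.99 and 6.04 except in MHC-Plin5 4 with 6.18 and control 2 with 6.24, so results are also given without these 2 arrays where that changes them. In RNA from heart tissue, fewer cells of a type and less RNA per cell cannot be told apart.

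MYC is a transcription factor that binds DNA only as a pair with MAX, at short sequences called E-boxes, and it is known for driving growth genes such as those that build ribosomes. MXD1, MXI1, MXD4 and MNT compete for MAX and repress at the same sites, while MLX pairs with MLXIP (MondoA) and its relative MLXIPL (ChREBP) to form a glucose-sensing branch. In the heart, MYC is low in the adult and rises under pressure load and other stress. Pvt1 lies next to Myc and is transcribed in the same direction.

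The E-box that the MYC and MAX pair prefers reads CACGTG, which is the same on both strands. RefSeq promoter windows of the assembly GRCm38.p6, each running from 250 bases before to 50 bases after an annotated start, were searched for it. The windows covered 8 of the 10 members: Mycn, Max, Mxd1, Mxd4, Mxi1, Mnt, Mlx and Mlxip. The E-box was present in 4 of these 8 genes, against 8.09% of 27025 genes with a window. These 27025 include genes that were not measured here. The base composition of the windows of the 8 genes was not compared with that of the others. The 4 sites are shown because they are the letters that the network's own proteins read, placed at the start of network genes. The E-box is in capitals with 12 bases on either side, 5′ to 3′ on the gene's strand, and its first base is counted from the start site.
Max, chr12:76962234-76962263, minus strand, first base at -3: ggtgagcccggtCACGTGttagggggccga
Mxd4, chr5:34187912-34187941, minus strand, first base at -219: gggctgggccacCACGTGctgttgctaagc
Mnt, chr11:74830789-74830818, plus strand, first base at -123: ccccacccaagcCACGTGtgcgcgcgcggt
Mlx, chr11:101087238-101087267, plus strand, first base at -40: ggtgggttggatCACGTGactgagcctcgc
A match is a description of these windows and was not tested as a binding site. The levels of these 4 genes in the 8 hearts are given below.

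Myc and Pvt1 stood higher in the MHC-Plin5 hearts, by 4.93-fold and 3.19-fold, and the other 8 members did not pass the test in either direction. The test was limma's moderated test over all 19938 genes, with Benjamini-Hochberg adjustment and a threshold of 0.05. Over all genes, 2.08% were called higher and 1.17% lower, 3.25% in all. Of the 10 members, 2 were called higher and 0 lower. The groups did not overlap in the same 2 members, and in 11.2% of all genes. Since the members were proposed with this contrast known, nothing is read from their count.

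Myc, the transcription factor itself, had log2 levels of 8.74, 9.74, 9.37 and 8.77 in MHC-Plin5 hearts 1 to 4, against 6.95, 6.61, 6.83 and 7.0 in control hearts 1 to 4. Every MHC-Plin5 heart lay above every control heart, and MHC-Plin5 2 was the highest. The means were 9.15 ± 0.49 in MHC-Plin5 hearts and 6.85 ± 0.17 in control hearts (SD, n = 4 each). The log2 difference was 2.30 (SE 0.21, 95% interval 1.85 to 2.76, adjusted p = 0.000232). Under 18 other settings of the analysis it ran from 2.11 to 2.44, with adjusted p values from 8.21e-05 to 0.0025.

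Pvt1, the non-coding neighbour, had log2 levels of 7.05, 7.54, 7.33 and 6.38 in MHC-Plin5 hearts, against 5.30, 5.29, 5.98 and 5.04 in control hearts. The closest hearts of the groups were MHC-Plin5 4 and control 3, and they did not cross. The means were 7.08 ± 0.51 in MHC-Plin5 hearts and 5.40 ± 0.40 in control hearts (SD, n = 4 each). The log2 difference was 1.67 (SE 0.25, 95% interval 1.12 to 2.23, adjusted p = 0.0054). A second row annotated to Pvt1 was dim, with a mean level below which only 2.42% of all rows of the table lie. It stood at 2.94 ± 0.31 in MHC-Plin5 hearts and 2.87 ± 0.09 in control hearts (SD, n = 4 each; log2 difference 0.07, SE 0.15). The rise of Pvt1 was therefore measured on 1 of its 2 rows, and their mean had a log2 difference of 0.87 (adjusted p = 0.00275).

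MHC-Plin5 2 and MHC-Plin5 3 held the highest and next highest level of Myc, of Pvt1 and of Plin5. For other genes only the highest and the lowest heart were counted, not this order. Of the 415 genes called higher, MHC-Plin5 2 was the highest heart in 120 (28.9%) and MHC-Plin5 3 in 209 (50.4%). At the other end, MHC-Plin5 4 held the lowest level of Pvt1 and Plin5 and MHC-Plin5 1 that of Myc. Among the 415 genes these hearts were the lowest in 190 and 154.

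**Figure D1:**
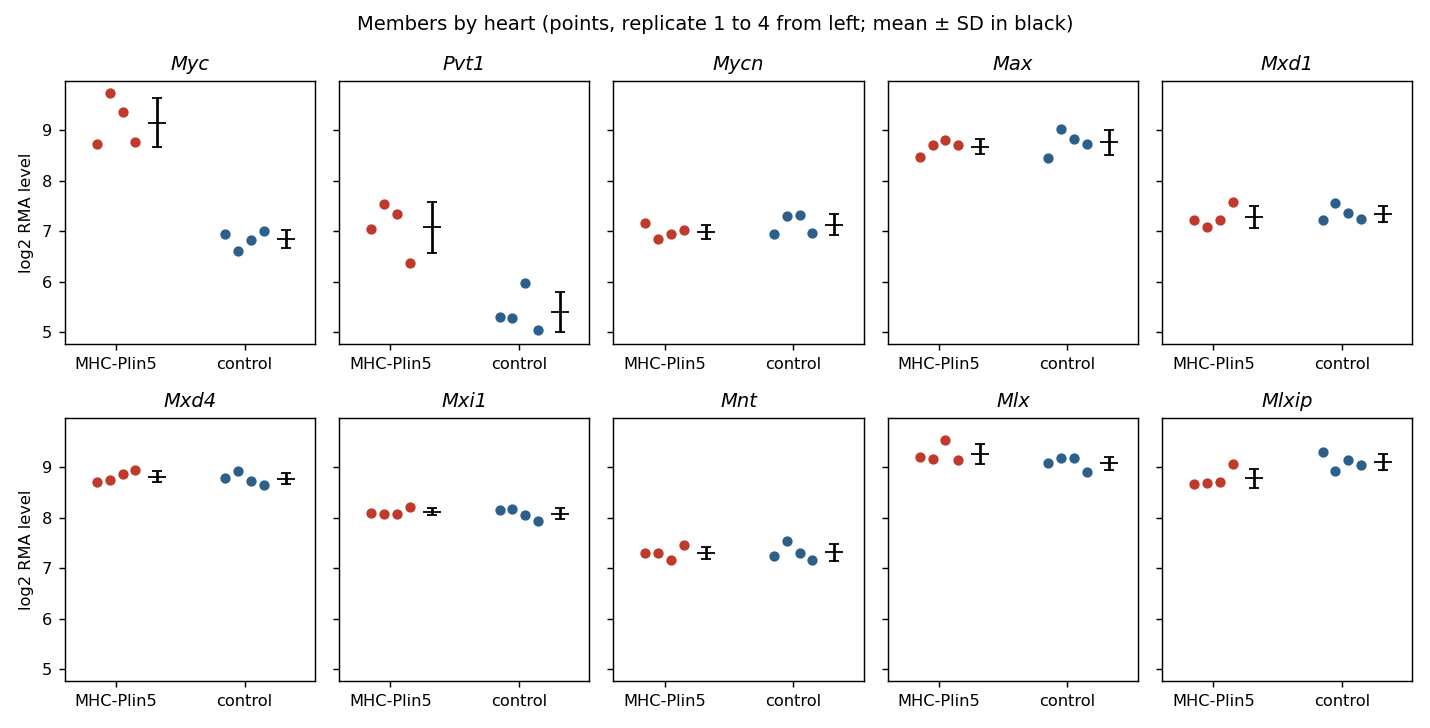
Log2 RMA level (vertical axis, shared) of the 10 genes in each heart, with MHC-Plin5 hearts in red on the left and control hearts in blue on the right of each panel. Points are hearts 1 to 4 and the black mark is the mean ± SD of 4 hearts. Myc and Pvt1 separate the groups, and the points of the other 8 genes overlap.

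Mycn, the MYC relative of the embryonic heart, ran from 6.84 to 7.16 in MHC-Plin5 hearts and from 6.94 to 7.33 in control hearts. Its log2 difference was -0.14 (SE 0.12, 95% interval -0.41 to 0.13, adjusted p = 0.627). The groups overlapped, so the higher level of Myc was not accompanied by a detectable change of this relative.

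Max, the partner that MYC needs to bind DNA, had log2 levels of 8.46, 8.71, 8.81 and 8.71 in MHC-Plin5 hearts, against 8.44, 9.03, 8.83 and 8.73 in control hearts. MHC-Plin5 1 and control 1 were the lowest hearts of their groups, and the ranges covered each other. The means were 8.67 ± 0.15 in MHC-Plin5 hearts and 8.76 ± 0.24 in control hearts (SD, n = 4 each). The log2 difference was -0.09 (SE 0.13, adjusted p = 0.816). Its 95% interval of -0.38 to 0.21 corresponds to 0.77-fold to 1.15-fold. The values of Myc and Max come from different probes, so their levels are not set against each other.

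The 4 repressors that share MAX with MYC overlapped between the groups. Mxd1, which is known for accompanying differentiation, ran from 7.08 to 7.59 in MHC-Plin5 hearts and from 7.22 to 7.56 in control hearts (log2 difference -0.07, SE 0.13). Mxd4, of the same family, ran from 8.71 to 8.93 in MHC-Plin5 hearts and from 8.64 to 8.91 in control hearts (0.04, SE 0.10). Mxi1, also named MAD2, ran from 8.07 to 8.21 in MHC-Plin5 hearts and from 7.93 to 8.16 in control hearts (0.04, SE 0.09). These 3 repressors thus differed by less than their SE. Mnt, the most broadly expressed repressor of the network, ran from 7.15 to 7.46 in MHC-Plin5 hearts and from 7.16 to 7.54 in control hearts (-0.01, SE 0.11). Over the 4 repressors the 95% intervals lay between -0.35 and 0.26 on the log2 scale.

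In the glucose-sensing branch, Mlx, the dimer partner, had log2 levels of 9.21, 9.15, 9.54 and 9.13 in MHC-Plin5 hearts, against 9.07, 9.17, 9.17 and 8.90 in control hearts. Its log2 difference was 0.18 (SE 0.12, 95% interval -0.08 to 0.44, adjusted p = 0.5). Mlxip, which carries the sensor domain, had 8.66, 8.69, 8.70 and 9.05 in MHC-Plin5 hearts, against 9.31, 8.91, 9.14 and 9.04 in control hearts. MHC-Plin5 4 lay within the control range and the other MHC-Plin5 hearts below it. The log2 difference of Mlxip was -0.32 (SE 0.12, 95% interval -0.59 to -0.05) and was not called, with an unadjusted p of 0.023 and an adjusted p of 0.203. With array weights its adjusted p was 0.0289 (log2 difference -0.41), and without control 2 and MHC-Plin5 4 it was 0.0415 (-0.48). Over the 8 members that were not called, the 95% intervals lay between 0.66-fold and 1.36-fold of control.

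**Figure D2:**
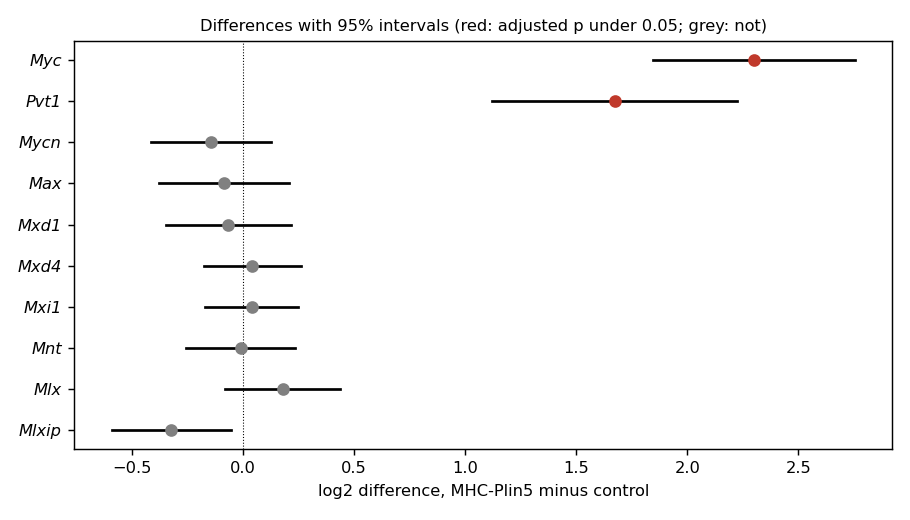
Log2 difference of the 10 genes, MHC-Plin5 minus control (horizontal axis), as points with 95% intervals as lines, unadjusted and from 4 hearts per group. Myc at 2.30 and Pvt1 at 1.67 lie clear of 0, while the other 8 lie between -0.32 and 0.18.

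The genes nearest to Myc on chromosome 15 were looked up in the RefSeq table of GRCm38.p6, as the 5 genes with a row on each side. Besides Pvt1, 9 such genes were measured, and 0 of them were called (0 also at an unadjusted p under 0.05). Of the 9, 4 were dim, with a mean level under 5 (A1bg, Gsdmc, Gsdmc2 and Gsdmc4), so a change of theirs may not be detectable on these rows. The other 5 had log2 differences from -0.09 to 0.08. Over all 9, the log2 differences ran from -0.20 in Gsdmc, a pore-forming gasdermin, to 0.08 in Trib1, a pseudokinase of protein turnover, and the adjusted p values from 0.37 to 0.927. A1bg and Lratd2, the nearest named genes before Myc, had log2 differences of -0.06 (SE 0.14) and -0.05 (SE 0.10). Macroh2a3, which lies inside the span of Pvt1 and is annotated as a transcribed pseudogene, stood at 5.88 ± 0.21 in MHC-Plin5 hearts and 5.91 ± 0.13 in control hearts (SD, n = 4 each; log2 difference -0.03, SE 0.12). Gsdmc, Gsdmc2 and Gsdmc4 are close copies, between which the probes may share signal.

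**Figure D3:**
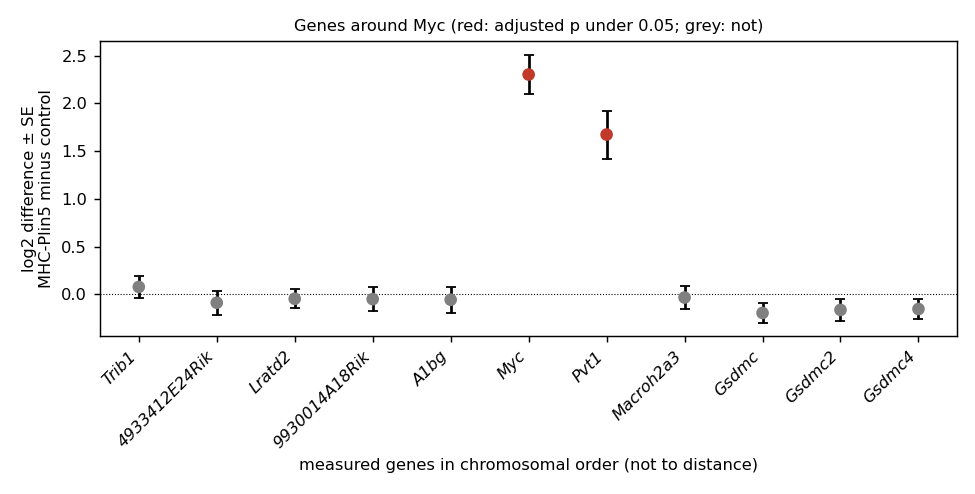
Log2 difference ± SE, MHC-Plin5 minus control (vertical axis), of the measured genes around Myc in chromosomal order (horizontal axis, not drawn to distance), from 4 hearts per group. Myc and Pvt1 stand at 2.30 and 1.67, and the 9 others between -0.20 and 0.08.

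Likeness to Myc was measured as the root mean square difference, over the 8 hearts, between a gene's log2 values and those of Myc, after taking off each gene's control mean. A small value means a rise of about the same size in the same hearts. The nearest of 19937 genes was Aldh18a1, an enzyme of proline synthesis, with 0.29. It had log2 levels of 9.98, 10.28, 10.28 and 9.59 in MHC-Plin5 hearts, against 7.80, 7.99, 7.95 and 8.21 in control hearts. Next came Chac1, which degrades glutathione, with 0.32, Acta1, the skeletal actin, with 0.34, Rasgef1a, an exchange factor of small GTPases, with 0.35 and Aqp8, a water channel, with 0.37. Pvt1 was number 21 in this order, with 0.56, while the other 8 members lay between 1.54 and 1.89 and the median of all genes was 1.70. The measure takes in both the size of the genotype difference and differences between single hearts.

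**Figure D4:**
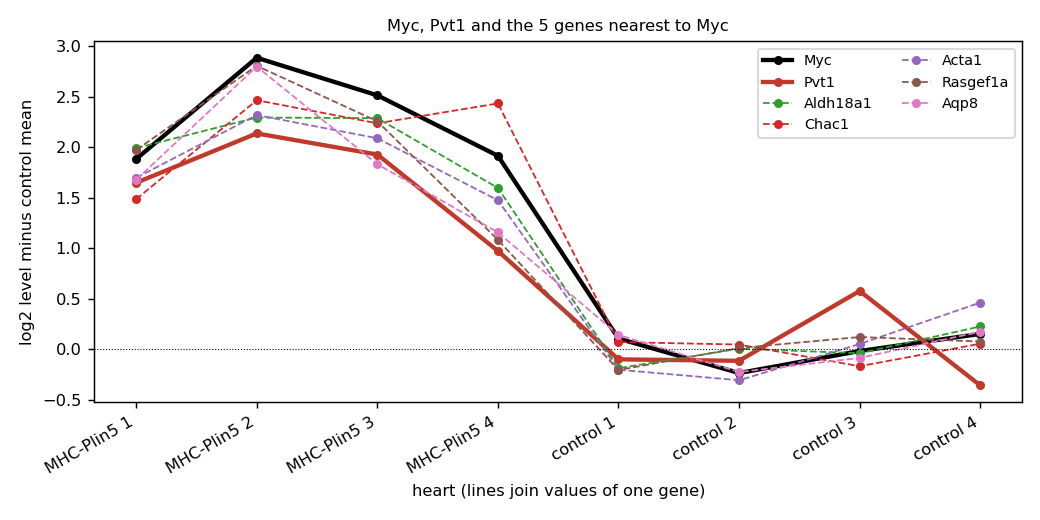
Log2 level minus the gene's control mean (vertical axis) in each heart (horizontal axis) for Myc (thick black), Pvt1 (thick red) and the 5 nearest genes (thin dashed lines). All 7 lie at 0.97 or above in each MHC-Plin5 heart and at 0.58 or below in each control heart.

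Of the network outside the 10 genes, 0 of 4 measured genes (Mycl, Mxd3, Mga and Mlxipl) were called by limma (1 at an unadjusted p under 0.05), with a median log2 difference of -0.06 beside -0.03 over all genes. Mlxipl, the ChREBP gene, had the smallest p of them, with levels of 8.03, 7.31, 6.99 and 8.20 in MHC-Plin5 hearts and 8.35, 8.02, 8.26 and 8.02 in control hearts (log2 difference -0.53, SE 0.24, adjusted p = 0.29). Of 6 other factors that bind E-boxes, 1 was called lower (beside 1.17% of all genes) and 0 were called higher. It was Mitf, a factor of melanocytes, mast cells and the heart, with 9.23, 9.02, 8.68 and 9.50 in MHC-Plin5 hearts against 9.92, 9.83, 9.80 and 9.68 in control hearts (-0.70, SE 0.16, adjusted p = 0.0362). The call of Mitf ended without any single control heart and without MHC-Plin5 2 or MHC-Plin5 3 (adjusted p up to 0.116). It also ended with the mean over its rows, where the difference was -0.43 (adjusted p = 0.172).

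Genes for the proteins that help MYC act or remove it did not pass the test. Among 18 measured cofactors limma called 0 (3 at an unadjusted p under 0.05, median log2 difference -0.04). The smallest p was that of Kat2a, the acetyltransferase GCN5 (0.42, SE 0.12, adjusted p = 0.102). Leaving out 1 heart gave Kat2a adjusted p values from 0.0317 (without MHC-Plin5 1) to 0.233, and it stayed uncalled under 16 of 18 other settings. Among 19 genes of MYC protein turnover limma called 0 (5 unadjusted, median -0.07). The share of all genes at an unadjusted p under 0.05 was not computed. Nothing is therefore read from the unadjusted counts of this list or of any other list in the text. Fbxw7, the ubiquitin ligase subunit that marks phosphorylated MYC for destruction, had levels of 7.85, 7.39, 7.09 and 7.74 in MHC-Plin5 hearts, against 8.03, 8.29, 8.07 and 7.94 in control hearts. The groups did not overlap, and its log2 difference of -0.56 (SE 0.16) had an adjusted p of 0.0923. Leaving out 1 heart gave adjusted p values from 0.0492 (without MHC-Plin5 1) to 0.236, with log2 differences from -0.67 to -0.42. Fbxw7 stayed uncalled under 16 of 18 other settings, and array weights gave an adjusted p of 0.0309.

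The building of ribosomes is a growth programme that MYC is known to drive. Of 29 measured genes of ribosome biogenesis and RNA polymerase I, 8 were called higher (27.6%, beside 2.08% of all genes) and 0 lower, and all 29 had a log2 difference above 0, beside 42.5% of all genes. The mean log2 level over the list was 8.40, 8.59, 8.68 and 8.51 in MHC-Plin5 hearts, against 8.15, 8.28, 8.16 and 8.05 in control hearts, so the groups did not overlap. The median log2 difference was 0.39, and it ran from 0.31 to 0.44 over the other settings, with at least 27 genes above 0 in each. The list was chosen with earlier results of these hearts known, so its counts are a description. A part of MYC in them was not tested.

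Rrp12, which carries ribosome precursors out of the nucleus, had log2 levels of 8.12, 8.57, 8.67 and 8.47 in MHC-Plin5 hearts, against 7.38, 7.70, 7.54 and 7.41 in control hearts (log2 difference 0.95, SE 0.13, adjusted p = 0.00343). Gnl3, the nucleolar GTPase nucleostemin, had 7.92, 8.55, 8.59 and 7.80 in MHC-Plin5 hearts, against 7.12, 7.28, 7.34 and 6.96 in control hearts (1.04, SE 0.18, adjusted p = 0.0133). Both genes separated the groups. Bop1 and Pes1 encode partners in one complex that processes the RNA of the large subunit. Their log2 differences were 0.70 (SE 0.11, adjusted p = 0.0086) and 0.57 (SE 0.10, adjusted p = 0.0112). The other called genes were Ncl, Wdr74, Nip7 and Mrto4, with log2 differences from 0.44 to 0.54. Npm1, Fbl and Ubtf, genes of the nucleolus, had 0.55, 0.29 and 0.03 and were not called.

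The number of ribosome biogenesis genes called was 4 when MHC-Plin5 2, MHC-Plin5 3, control 1 or control 4 was left out, 5 without control 2 and 3 without control 3. The call of Pes1 ended without control 3 (adjusted p = 0.0508). Markers of other heart cells were examined beside this list, and their part in it was not tested. All 8 measured fibroblast markers and all 8 macrophage markers had differences above 0, with medians of 0.33 and 0.27 and 0 called by limma in either list (1 fibroblast and 0 macrophage markers at an unadjusted p under 0.05). Without MHC-Plin5 3 the medians were 0.20 for fibroblast markers, with 7 of 8 above 0, and 0.13 for macrophage markers, and without MHC-Plin5 2 the macrophage median was 0.40. The mean log2 level of the fibroblast list was 8.88 to 9.69 in MHC-Plin5 hearts and 8.73 to 9.27 in control hearts. That of the macrophage list was 7.98 to 8.66 in MHC-Plin5 hearts and 7.83 to 8.22 in control hearts, so both lists overlapped between the groups. T and B lymphocyte markers had a median of -0.13 and neutrophil markers of 0.09, with 0 called in each (1 and 3 unadjusted). Ms4a1, Cd79a, Ly6g and Cxcr2 among them were dim, with mean levels under 5, so a change of theirs may not be detectable. The medians were 0.51 for atrial, -0.11 for ventricular, -0.15 for endothelial, 0.04 for smooth muscle and pericyte, -0.58 for adipocyte and -0.05 for erythroid markers. Single hearts moved several of these. The ventricular median ran from -0.15 (without MHC-Plin5 4) to -0.07 (without MHC-Plin5 3), and 8 of the 9 ventricular markers lay below 0 with all hearts. The adipocyte median was -0.80 without control 3. It was -0.16 without control 4, in which Retn stood at 8.82, against 5.65 to 6.68 in the other control hearts. Leaving out 1 heart gave -0.03 (without control 3) to 1.01 (without control 4) for atrial markers, and Myl7, the atrial myosin light chain, ran from 5.98 to 11.90 in MHC-Plin5 hearts and from 6.35 to 12.92 in control hearts. The range was -0.31 (without MHC-Plin5 3) to 0.12 (without MHC-Plin5 4) for smooth muscle and pericyte, -0.30 (without MHC-Plin5 1) to 0.28 (without MHC-Plin5 2) for erythroid, -0.21 (without MHC-Plin5 4) to -0.05 (without control 4) for lymphocyte and 0.03 (without MHC-Plin5 3) to 0.22 (without control 2) for neutrophil markers. Of all 66 measured markers 1 was called (beside 3.25% of all genes), the pericyte channel gene Kcnj8 (log2 difference -0.43, SE 0.10, adjusted p = 0.0377). Its call ended without MHC-Plin5 2, MHC-Plin5 3 or any 1 control heart (adjusted p up to 0.129). It also ended under median centring, the fit over every row, the replicate block and without both arrays with the highest medians. The smooth muscle and pericyte list that holds Kcnj8 was mixed, with 4 markers above 0 and 3 below. Among those below was Rgs5, which was not called (log2 difference -0.36, SE 0.10, limma adjusted p = 0.0951).

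The promoter windows of the called ribosome genes held the E-box in 1 of 6 genes with a window, against 5 of 18 among the uncalled ones. That gene was Pes1, and its site is shown because the gene was called higher while the network members with a like site were not.
Pes1, chr11:3963965-3963994, plus strand, first base at 3: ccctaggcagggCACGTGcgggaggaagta
Over all measured genes with a window, the E-box was present in 17.5% of 337 genes called higher, against 9.32% of 15097 genes not called. The share among genes called lower was not computed. A gene counted where any of its windows held the E-box, so genes with several windows had more chances. The windows of the genes called higher were also richer in G and C, with 61.8% against 56.8%, and the part of base composition in this difference was not tested.

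Nucleotide and polyamine synthesis held 4 genes called higher among 21 (19.0%, beside 2.08% of all genes) and 0 lower (median log2 difference 0.03). Srm, the spermidine synthase, had log2 levels of 9.56, 10.16, 10.45 and 9.63 in MHC-Plin5 hearts, against 8.87, 9.24, 9.03 and 9.0 in control hearts (0.92, SE 0.19, adjusted p = 0.0255). Ctps, which makes CTP, had 8.82, 9.05, 9.17 and 8.87 in MHC-Plin5 hearts, against 8.45, 8.46, 8.30 and 8.04 in control hearts (0.67, SE 0.12, adjusted p = 0.0174). Neither gene overlapped between the groups. Atic, of purine synthesis, and Nme1, a nucleoside diphosphate kinase, had log2 differences of 0.61 (SE 0.13) and 0.73 (SE 0.16). These calls depended on single hearts: 0 of the 4 were left without MHC-Plin5 2 or control 3, 1 without control 1 or control 4, and 2 without MHC-Plin5 1, MHC-Plin5 3 or control 2.

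In the list of glycolysis and amino acid supply, 8 of 19 genes were called higher (42.1%, beside 2.08% of all genes) and 0 lower. The median was 0.12, and it ran from 0.07 without control 1 to 0.26 without control 4. The called genes were Asns, Mthfd2, Slc7a5, Slc3a2, Phgdh, Psat1, Shmt2 and Slc2a1, which take up or make amino acids and one-carbon units or take up glucose. Apart from Slc2a1 they are also known as targets of the stress factor ATF4. Asns, Mthfd2 and Slc7a5 had log2 differences of 4.46 (SE 0.16), 4.37 (SE 0.18) and 3.23 (SE 0.14). The glycolysis enzymes Ldha, Hk2, Pkm, Tpi1 and Pgk1 were not called, with log2 differences from -0.18 to 0.05. Slc3a2, the heavy chain that pairs with the amino acid transporter Slc7a5, stood at 12.07 ± 0.23 in MHC-Plin5 hearts and 10.92 ± 0.08 in control hearts (SD, n = 4 each). The log2 difference was 1.16 (SE 0.12, adjusted p = 0.00076).

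Of 24 measured genes of the cell cycle and DNA replication, 1 was called higher (4.17%, beside 2.08% of all genes) and 0 lower. The median was 0.05. The called gene was Ccnd2, cyclin D2, with log2 levels of 12.02, 12.12, 12.37 and 11.62 in MHC-Plin5 hearts, against 11.22, 11.37, 11.22 and 10.97 in control hearts (0.83, SE 0.15, adjusted p = 0.017). Its call ended without MHC-Plin5 2, control 1, control 3 or control 4 (adjusted p up to 0.0621). Among 10 genes that MYC is known to repress limma called 0 (1 unadjusted, median -0.08). The smallest p was that of Gadd45a, a stress-induced growth arrest gene, which was at 7.96, 7.52, 7.75 and 7.72 in MHC-Plin5 hearts and 7.29, 7.41, 7.0 and 6.71 in control hearts (0.63, SE 0.16, adjusted p = 0.0535). Under filters on dim genes, both rescalings, the intensity trend and array weights Gadd45a passed the test, with adjusted p values from 0.0206 to 0.0482. Among 10 targets of MondoA and ChREBP limma called 0 (3 unadjusted, median -0.10), with 3 differences above 0 and 7 below. Arrdc4 at 0.27 and Txnip at -0.31 lay on opposite sides of 0. G6pc and Gys2 were dim, with mean levels under 5, so a change of theirs may not be detectable. The smallest p in this list was that of Khk, the fructose kinase (-0.38, SE 0.12, adjusted p = 0.134).

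**Figure D5:**
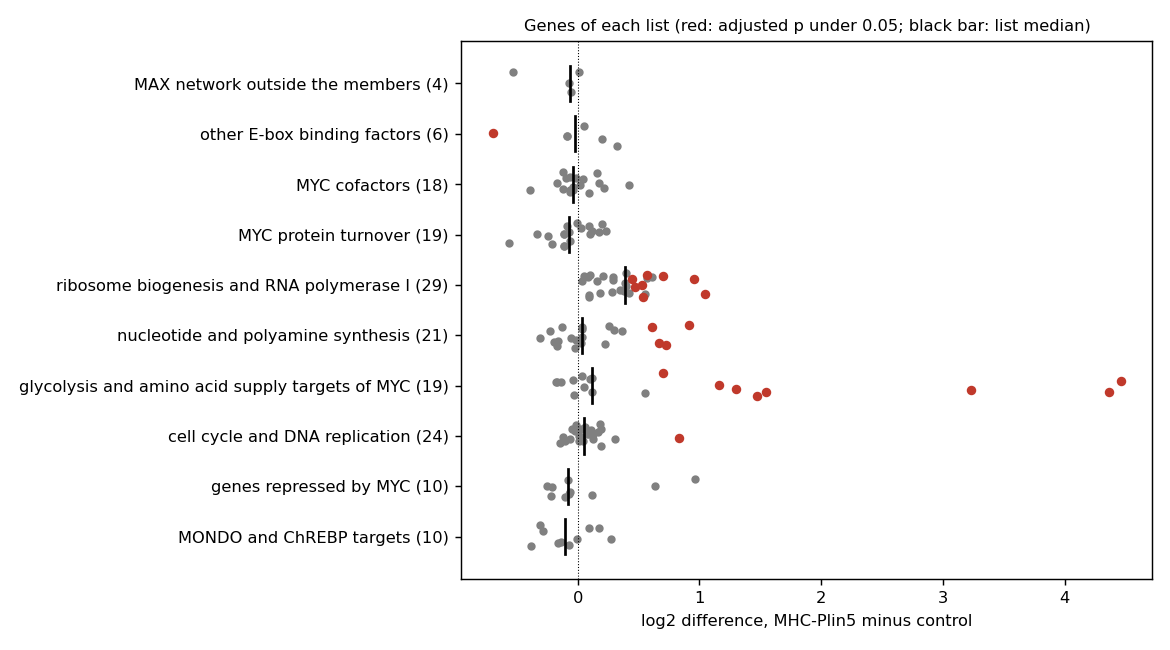
Log2 difference, MHC-Plin5 minus control (horizontal axis), of every measured gene of the 10 lists (rows, with the number measured), as grey points or as red points where the adjusted p was under 0.05. The black bar is the list median from 4 hearts per group. The 29 ribosome biogenesis genes all lie right of 0, and the cell cycle genes lie around 0 apart from Ccnd2.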

How the data were processed

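Per the submitters' processing notes, the authors used RMA within Affymetrix Expression Console, and the deposited values are its log2 output. RMA corrects background, equalises the distributions of the arrays and summarises probes. Its version and summary level were not found in the labels. The table held 35556 rows, 21789 of them with 1 gene symbol in GEO's platform annotation, and 1 row per gene left 19938 genes. The 4 arrays in each group limit the precision, and separate mice were inferred from the series text.

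Each gene was fitted with limma 3.58.1 in R 4.3.3 (genotype as the only term, two-sided, Benjamini-Hochberg over all genes, called under 0.05). This step was also run on simulated data, drawn independently for each gene. Effects of a heart shared by many genes were not simulated, so the rate of false calls in these hearts was not measured. Python 3.11.15 prepared the tables. The members and gene lists (10 pathway and 10 cell type lists, from textbook knowledge) were chosen with earlier results of these data known. Named genes were Plin5, the members, up to 4 called genes of each pathway list by p (or the 1 with the smallest p), up to 2 of each cell type list, the 5 genes nearest to Myc and its neighbours; the text gives cell type lists as summaries and also names further listed genes. Alternatives were filters, scalings, variance models, array weights, row choices, the heart number as a block and each heart left out. Leaving out both arrays with the highest medians was added after the data were seen.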

Additional observations from a re-analysis of the deposited data

Results flagged for a closer look

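Among 128 groups of 4 hearts, from 64 named genes, 5 held a heart far from the other 3 by Dixon's criterion, which chance meets in about 1 of 20 groups. Mxi1 was at 8.21 in MHC-Plin5 4 and between 8.07 and 8.09 in the other MHC-Plin5 hearts. Mlxip was at 9.05 in MHC-Plin5 4 and between 8.66 and 8.70 in the others. Mthfd2 was at 10.25 in MHC-Plin5 4, the lowest, and between 11.003 and 11.14 in the others. Chac1 was at 6.91 in control 3 and between 7.12 and 7.15 in the other control hearts. Gsdmc4 was at 3.84 in control 2 and between 3.49 and 3.53 in the others.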

How the results depend on the processing

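Myc, Pvt1 where it was tested, and Plin5 kept their call under every alternative run. A filter at a mean of 7 removed Pvt1 and left 1 called member. With 1 heart left out, the called genes numbered 233 to 1174 in all (170 to 614 higher), beside 648 (415 higher) with all hearts. They were 233 without MHC-Plin5 2, 344 without MHC-Plin5 3, 1174 without MHC-Plin5 4, and 246, 317, 235 and 334 without control 1 to 4. Array weights gave 1625 (884 higher). The fit over every row of the table gave 229 (170 higher). It has more tests and also other variance estimates, with an SE of 0.22 for Myc beside 0.21. The scalings moved the median of all genes by less than 0.1.

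Leaving out 1 heart gave 3 to 10 called genes in ribosome biogenesis, 0 to 4 in nucleotide synthesis, 0 to 1 in the cell cycle, 0 to 1 lower among other E-box factors (Mitf), 0 to 1 higher and 0 to 1 lower among cofactors and 0 to 1 lower in protein turnover. The every-row fit left 4 ribosome biogenesis genes and 0 in nucleotide synthesis, the cell cycle or other E-box factors. The mean over rows and the replicate block each also left 0 E-box factors. Array weights gave 17 ribosome biogenesis genes, and 1 lower gene each in cofactors, protein turnover and the MondoA targets. Median centring gave 1 higher cofactor, and leaving out both arrays with the highest medians 1 lower one. Genes repressed by MYC had 1 called higher, Gadd45a, under both filters, quantile normalization, median centring, the intensity trend and array weights. Mlxip was called with array weights (-0.41) and without both arrays (-0.48).

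Differences near 0 changed sign without being called. Leaving out 1 heart gave -0.19 to 0.0042 for Max, -0.17 to 0.0076 for Mxd1, -0.0087 to 0.0683 for Mxi1 and -0.062 to 0.0671 for Mnt. Mnt was at 0.0308 with median centring, 0.0137 with array weights and 0.0155 without both arrays, and Mxd4 at -0.0038 after quantile normalization. Among the neighbours the ranges were -0.19 to 0.0227 for 4933412E24Rik (0.0222 without both arrays), -0.10 to 0.0042 for Lratd2, -0.14 to 0.0168 for 9930014A18Rik (0.0166 after quantile normalization), -0.13 to 0.0687 for A1bg and -0.13 to 0.0415 for Macroh2a3 (0.019 after quantile normalization, 0.0067 with median centring). Causes were not tested.

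Deviations of same-numbered hearts correlated at 0.187, 0.0254, -0.107 and -0.0403 between the groups, and no pairing is given in the sample titles. The replicate block gave 507 called genes. With groups of equal size the block cannot change a difference, so Myc at 2.30 and Pvt1 at 1.67 were fixed in advance. The SE with the block was 0.22 for Myc and 0.16 for Pvt1, beside 0.21 and 0.25 without it.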
